A study of Fundulus heteroclitus with 20 samples.

Results

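Matrix metalloproteinases (MMPs), ADAMs and ADAMTSs are zinc-dependent proteases that act at and outside the cell surface. In the deposited count table of the mummichog midbrain/diencephalon, 37 of 13679 genes carried a description that names them. Members were chosen by words in the deposited gene description alone: matrix metallopeptidase, matrix metalloproteinase, disintegrin, ADAM metallopeptidase, metalloproteinase inhibitor, TIMP metallopeptidase, collagenase or stromelysin. By their descriptions 12 members are MMPs, 11 are ADAMs and 14 are ADAMTSs. The words for inhibitors matched 0 genes, so tissue inhibitors of metalloproteinases (TIMPs) were not analysed here, and the data below describe the proteases only. No member is described as a gelatinase, MMP2 or MMP9, so the results below do not cover these enzymes.

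MMPs are made as inactive precursors, are secreted or held at the cell membrane, and cut components of the extracellular matrix as well as other proteases and growth factors. ADAMs are membrane proteins, and those with an active protease domain release the extracellular parts of neighbouring membrane proteins, among them Notch, growth factor precursors and the amyloid precursor protein. ADAMTSs are secreted and bind the matrix; some cut the proteoglycans that surround neurons, and others trim procollagen. In mammals, several of these enzymes are studied after brain injury for their part in opening the blood-brain barrier, in inflammation and in remodelling of the matrix.

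The lesioned group was the hemisphere into which a needle had been pushed through the optic tectum and tegmentum into the hypothalamus, in 10 adult fish 1 h post-lesion. The intact group was the contralateral hemisphere of the same 10 fish, so it came from the same anesthetized, operated and recovered animals, and no fish without injury was sequenced. Fish were adult animals from a commercial supplier, and the labels give neither sex nor exact age. The sample labels place every lesioned hemisphere on the right and every intact one on the left, whereas the study's methods divide both groups equally between the sides, so by the labels side and lesion cannot be told apart.

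In the deposited table the 20 libraries held 9558789 to 10818067 counts in lesioned and 9213580 to 11070103 counts in intact hemispheres. The study's methods give far more aligned reads per sample, so these totals are not the sequencing depth. That table is labelled as holding annotated genes only, so a gene missing from it may still be expressed. Members took 0.147 ± 0.00837% of all counts in lesioned and 0.147 ± 0.00967% in intact hemispheres (SD, n = 10 fish). Markers of the tissue were present. Levels are given in CPM, which are counts scaled to the library's total in the deposited table. The neuronal genes in the table, gad2 and slc17a6, summed to 1077 to 1277 CPM in lesioned and 1039 to 1258 CPM in intact hemispheres. The astroglial glutamate transporter slc1a2 had 3875 to 5346 CPM in lesioned and 4021 to 5411 CPM in intact hemispheres. Endothelial genes (3 of 6 listed names were in the table) summed to 401 to 559 CPM in lesioned and 414 to 563 CPM in intact hemispheres, and genes of fibroblasts and meninges (4 of 7) to 290 to 404 CPM in lesioned and 290 to 470 CPM in intact hemispheres. Genes of microglia and macrophages (4 of 10) summed to 66.2 to 113 CPM in lesioned and 63.7 to 136 CPM in intact hemispheres, and the sum was higher in the lesioned hemisphere of 2 of the 10 fish. Oligodendrocyte genes (2 of 6) summed to 304 to 463 CPM in lesioned and 324 to 472 CPM in intact hemispheres and were likewise higher in 2 fish. Skeletal muscle genes (3 of 6) summed to 7.12 to 102 CPM in lesioned hemispheres, with the highest value in fish 5, and to 6.64 to 13.7 CPM in intact hemispheres, and the sum was higher in the lesioned hemisphere of 8 fish. The erythrocyte gene hemgn (1 of 5) had 3.3 to 12 CPM in lesioned and 1.99 to 13.7 CPM in intact hemispheres and was higher in 9 fish. None of the 4 neutrophil names was in the table. Marker names were looked for as gene symbols, so genes to which the table gives a placeholder symbol could be missed. No gene of these lists was called at an adjusted p-value of 0.1 in the test below, and their part in the results was not tested. Of the 3 skeletal muscle genes only 1 had enough counts to enter that test.

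Lesioned and intact hemispheres were compared gene by gene with edgeR's quasi-likelihood test, with fish as a block and p-values adjusted by the Benjamini-Hochberg method over all 10513 genes that passed a filter on low counts. Of the 37 members, 32 passed that filter. At the study's stricter cutoff, an adjusted p-value of 0.1, none of the 32 members was called in either direction by this test, and none by DESeq2, where 1.38% of all genes tested were called by edgeR and 1.67% by DESeq2. An unadjusted p-value under 0.05 was reached by 5 members in edgeR, against 11.7% of all genes. At the permissive cutoff of 0.4, 4 members were higher and 1 was lower in lesioned hemispheres, which is 15.6% of the members, against 10.1% of all genes (6.12% higher and 3.97% lower). These 5 members are adamts1, mmp14, mmp23b, LOC105916372 and LOC105918488. With the DESeq2 test, 3 members were higher and 0 were lower at 0.4, where 370 genes were called in all. The median log2 fold change (lesioned over intact) was 0.012 over the 32 members and -0.00875 over all genes tested, and 19 members had a value above and 13 a value below 0. The sign of the members' median was not kept under upper quartile scaling (-0.00114), and without fish 1 it was 0.000779. In bulk tissue, fewer cells of a type and less RNA per cell cannot be told apart. The counts at 0.4 moved with the fish included, as did the number of all genes called, which was 1060 with all fish. The number of members higher was 2 without fish 6 (556 genes called in all), 2 without fish 9 (318) and 1 without fish 8 (279). The number lower was 2 without fish 2 (734) or fish 3 (2066) and 0 without fish 9, and both numbers were 0 without the block, where 88 genes were called in all.

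**Figure D1:**
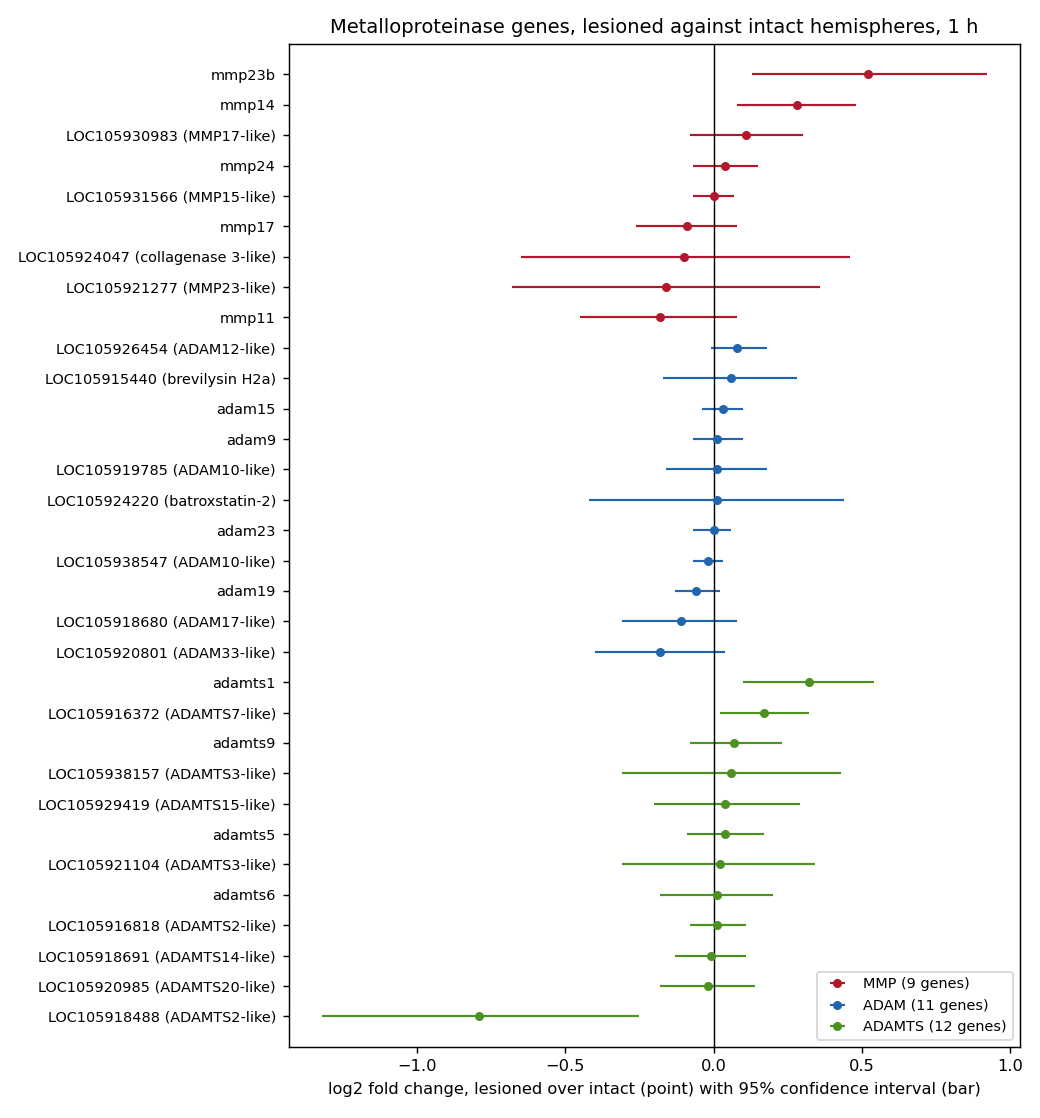
Log2 fold change of lesioned over intact hemispheres for the 32 members tested (x axis), grouped as MMP, ADAM and ADAMTS genes from top to bottom; points are edgeR estimates and bars their 95% confidence intervals, n = 10 fish. Intervals of adamts1, mmp14, mmp23b and LOC105916372 lie above 0 and that of LOC105918488 lies below 0, and the other 27 cross it.

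The intervals show how large a difference these data leave room for. The 95% confidence interval of the log2 fold change lay within 0.25 of 0 in 15 of the 32 members and within 0.5 of 0 in 27. Over all genes, 9480 of the 10513 tested had an interval within 0.5 of 0. By group the narrower limit held for 7 of 11 ADAMs, 6 of 12 ADAMTSs and 2 of 9 MMPs, against 69.3% of all genes tested. Levels are not divided by transcript length, so they are compared between hemispheres and fish but not between genes.

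Among the MMPs, the membrane-type enzyme mmp14, which in mammals cuts fibrillar collagen and activates the gelatinase MMP2, had 9.35, 17.4 and 23.1 CPM as lowest, median and highest value in lesioned hemispheres, against 8.44, 12.4 and 23.2 CPM in intact hemispheres. It was higher in the lesioned hemisphere of 9 of the 10 fish, the only member with 9 or more fish in 1 direction. Over all genes, 3.64% were higher and 2.08% were lower in at least 9 fish. The log2 fold change was 0.28 (SE 0.09), with an adjusted p of 0.241 in edgeR's quasi-likelihood test and an unadjusted p of 0.00586 in an exact permutation test, two-sided, that flips the signs of the 10 ratios. Results of the exact test are printed only for the 5 members with an unadjusted p under 0.05 in edgeR's test. They come from the same fish and are no separate evidence. The groups overlapped widely, and fish differed in level. Fish 4, 5, 6 and 7 had 20.6 to 23.1 CPM in lesioned and 19.1 to 23.2 CPM in intact hemispheres, with log2 ratios of 0.10, -0.08, 0.11 and 0.09. Fish 1 had the largest log2 ratio, 0.92, and fish 10 had 0.62 with 13.7 CPM in the lesioned and 8.88 CPM in the intact hemisphere. Without the block, which compares the hemispheres within a fish, the log2 fold change was 0.24.

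The description of mmp23b is that of MMP23, a membrane-anchored MMP with an unusual cysteine-rich domain. It had 4.07, 8.94 and 14.3 CPM (lowest, median, highest) in lesioned hemispheres, against 3.09, 5.88 and 11.3 CPM in intact hemispheres, and was higher in 7 of 10 fish. Its log2 fold change of 0.52 was the highest among the members (SE 0.18), with an adjusted p of 0.281 in edgeR's test and an unadjusted p of 0.0215 in the exact sign-flip test. Fish 9 weighed most: its hemispheres had 14.3 CPM (lesioned) and 3.41 CPM (intact), so that its log2 ratio was 2.01 against -0.16 to 1.17 in the remaining fish. Without fish 9 the log2 fold change was 0.36. A second gene of this description, LOC105921277 (mmp23bb in a later annotation), had 1.14 ± 0.512 CPM in lesioned and 1.28 ± 0.535 CPM in intact hemispheres (SD, n = 10 fish), and its interval, -0.68 to 0.36, held values of both signs. Whether the 2 genes differ in their change was not tested.

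**Figure D2:**
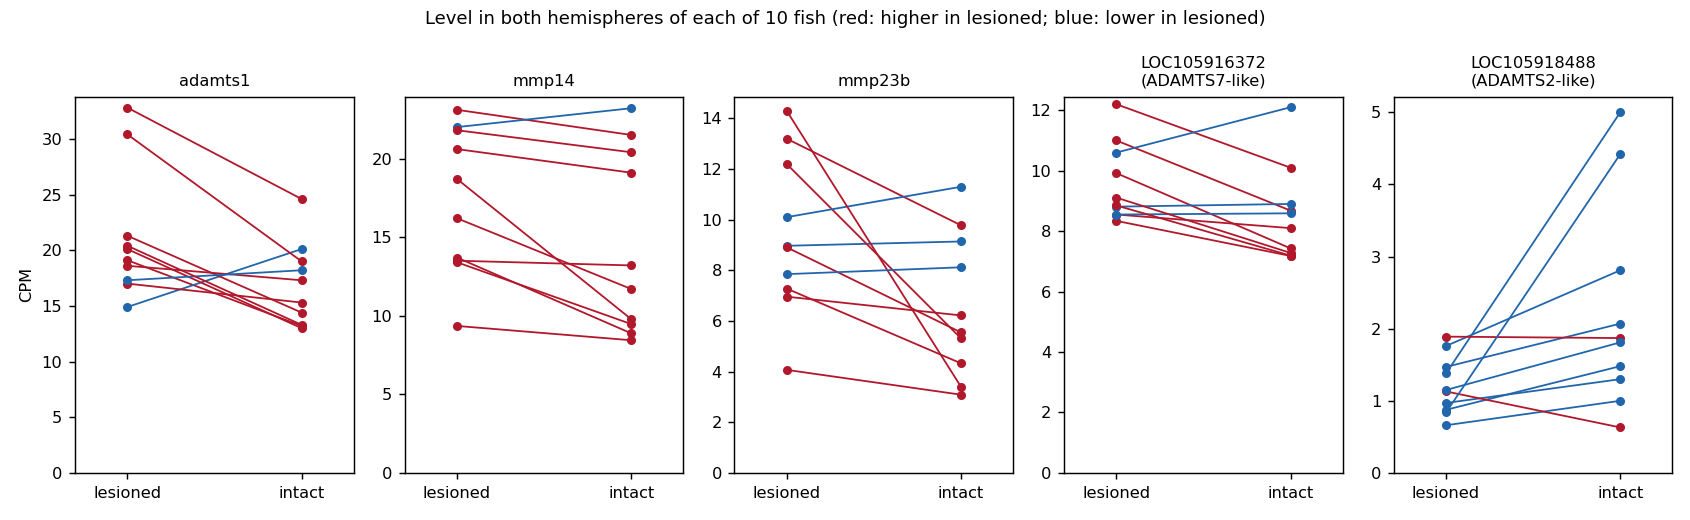
Level in CPM (y axis, from 0) in the lesioned and the intact hemisphere of each of 10 fish for the 5 members with an unadjusted p-value under 0.05; each line joins the hemispheres of 1 fish, red where the lesioned one was higher and blue where it was lower. Red lines number 8 for adamts1, 9 for mmp14, 7 for mmp23b and for LOC105916372, and 2 for LOC105918488, and the levels of the groups overlap in every panel.

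Of the other membrane-type MMPs, LOC105931566 and mmp24 differed little between hemispheres. LOC105931566, described as MMP15-like, had 47.6, 61.3 and 75 CPM in lesioned hemispheres (lowest, median, highest), against 44.4, 58.7 and 78 CPM in intact hemispheres, and its interval ran from -0.07 to 0.07 on the log2 scale. For mmp24, a membrane-type MMP known from the mammalian nervous system, the values were 29.9, 33.9 and 49.2 CPM in lesioned and 29.6, 33.3 and 42.1 CPM in intact hemispheres, with an interval of -0.07 to 0.15. It was higher in the lesioned hemisphere of 8 of 10 fish, by a median log2 ratio of 0.06. The enzyme MMP17 is held at the membrane by a lipid anchor. Its gene mmp17 had 12, 13.9 and 20.3 CPM in lesioned and 12.9, 15.1 and 18.7 CPM in intact hemispheres and was lower in 7 of 10 fish (log2 fold change -0.09, SE 0.08, adjusted p = 0.707 in edgeR's test). Without fish 2 these values were -0.16 and 0.345, which passes the permissive cutoff. LOC105930983 is also described as MMP17-like and differed by 0.11 on the log2 scale (SE 0.09). The intervals of mmp17, -0.26 to 0.08, and of LOC105930983, -0.08 to 0.30, were wider than those of LOC105931566 and mmp24. In the later assembly MU-UCD_Fhet_4.1, LOC105930983 lies on the same chromosome as mmp17, with 4 annotated genes between them. How reads that match more than 1 such copy were counted is not given in the sources used here.

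The MMPs with fewest counts gave wide intervals. LOC105924047, described as collagenase 3-like, is the only collagenase among the members; collagenase 3 is MMP13, which cuts fibrillar collagens. It had 0.283, 1.46 and 2.51 CPM in lesioned hemispheres, against 0.301, 1.48 and 2.86 CPM in intact hemispheres, from 3 to 24 and from 3 to 29 counts. It was higher in the lesioned hemisphere of 5 fish and lower in 5, with log2 ratios from -1.36 in fish 6 to 1.61 in fish 9, and its interval, -0.65 to 0.46, was the widest of the 32. For mmp11, also called stromelysin-3, the log2 fold change was -0.18 (interval -0.45 to 0.08) with 3.82 ± 0.915 CPM in lesioned and 4.35 ± 1.05 CPM in intact hemispheres (SD, n = 10 fish).

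Below the filter on low counts lay 5 members, of which 3 are MMPs. LOC105926619, described as MMP17-like and named mmp25b in the later annotation, had 81 counts over the 10 lesioned and 117 over the 10 intact libraries. LOC105935197, described as MMP19-like, had 68 counts in lesioned and 54 in intact libraries. The gene mmp21, known in vertebrates for its part in left-right patterning of the embryo, had 131 counts in lesioned and 136 in intact libraries, but nearly all came from 2 fish. Fish 2 had 62 counts in the lesioned and 69 in the intact hemisphere and fish 3 had 59 and 46, whereas the other 8 fish had 0 to 5 counts in lesioned and 0 to 6 in intact hemispheres. The 2 ADAMTS genes below the filter were LOC105938158, described as ADAMTS3-like, with 78 counts in lesioned and 56 in intact libraries, and LOC105924596, described as ADAMTS20-like, with 0 counts in all 20 libraries, which allows up to 0.0148 CPM (3 counts over all libraries; counting error only). Neither of these ADAMTS genes had a match by gene ID in the later annotation.

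All 11 ADAMs passed the filter, and none had an unadjusted p-value under 0.05 in edgeR's test (11.7% of all genes did). All 11 intervals lay within 0.5 of 0, as did those of 9480 of the 10513 genes tested. These counts do not set the ADAMs apart. The sheddase ADAM10 releases Notch and cuts the amyloid precursor protein, and the ADAM10-like gene with more counts, LOC105938547, had 203, 219 and 235 CPM in lesioned hemispheres, against 205, 218 and 236 CPM in intact hemispheres. Its ratios were the most uniform of all members, with an SD of 0.04 over the 10 fish and a confidence interval of -0.07 to 0.03, which is a fold of 0.955 to 1.02. The second gene described as ADAM10-like, LOC105919785, had 20.9, 26.1 and 36.7 CPM in lesioned and 21.2, 25.5 and 41.6 CPM in intact hemispheres, and its interval was -0.16 to 0.18.

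The gene adam23 codes for an ADAM without protease activity that binds LGI proteins at synapses. It had the most counts of the members, with 453, 504 and 544 CPM in lesioned hemispheres, against 414, 520 and 560 CPM in intact hemispheres, and an interval of -0.07 to 0.06. The sheddase gene adam9 had 96.6, 112 and 158 CPM in lesioned and 99.5, 111 and 166 CPM in intact hemispheres (interval -0.07 to 0.10). For adam15, an ADAM with an integrin-binding disintegrin domain, the values were 98.2, 155 and 226 CPM in lesioned and 90.7, 154 and 217 CPM in intact hemispheres (interval -0.04 to 0.10). ADAM17 is the enzyme that releases tumor necrosis factor, and LOC105918680, described as ADAM17-like and named adam17b in the later annotation, had 2.53, 3.52 and 12.4 CPM in lesioned and 2.47, 4.04 and 15.4 CPM in intact hemispheres (log2 fold change -0.11, SE 0.09). The intervals of all these genes held 0.

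The remaining ADAMs had log2 fold changes of -0.18 (LOC105920801, ADAM33-like) to 0.08 (LOC105926454, ADAM12-like). A pair of genes that the deposited table names after snake venom enzymes, LOC105915440 (brevilysin H2a) and LOC105924220 (batroxstatin-2), are adam28 and adam8a in the later annotation, which matched 33 of the 37 members by gene ID. LOC105924220 varied most between the hemispheres of a fish among the ADAMs, with log2 ratios from -1.22 in fish 5 to 0.90 in fish 1, around a log2 fold change of 0.01 (SE 0.20). In mammals ADAM8 is a protease of leukocytes.

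**Figure D3:**
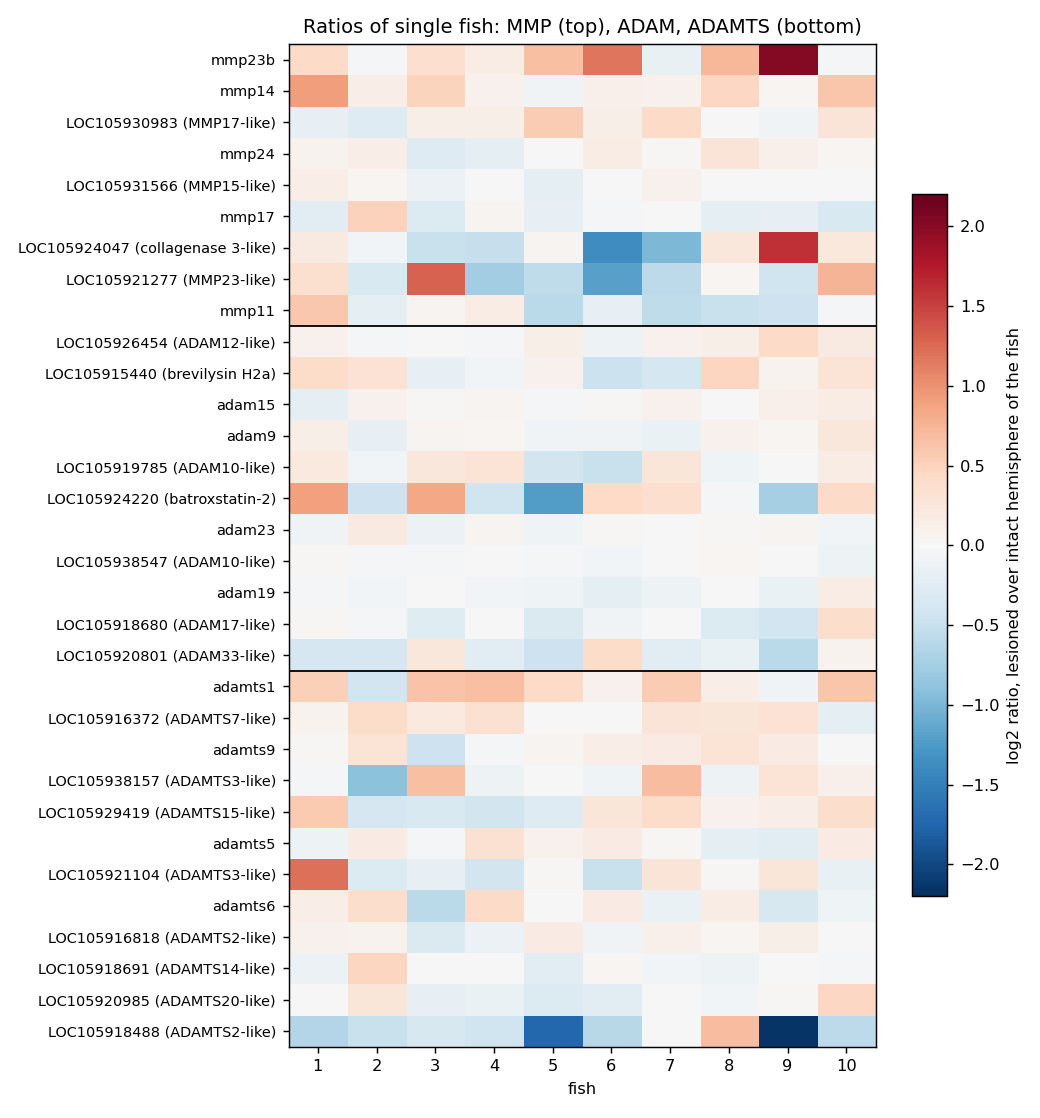
Log2 ratio of the lesioned over the intact hemisphere (colour scale, red higher and blue lower in lesioned) for the 32 members tested (rows: MMP, ADAM and ADAMTS genes from top to bottom) in each of 10 fish (columns). The row of LOC105938547 is the palest, with an SD of 0.04, the darkest cells are those of fish 9 in LOC105918488 (-2.16) and mmp23b (2.01), and no column is of 1 colour.

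Among the ADAMTSs, adamts1, a secreted protease that cuts the proteoglycans aggrecan and versican in mammals, had 14.9, 19.6 and 32.8 CPM in lesioned hemispheres, against 13, 16.3 and 24.6 CPM in intact hemispheres. It was higher in the lesioned hemisphere of 8 of 10 fish, and its log2 fold change was 0.32 (SE 0.10, interval 0.10 to 0.54). The adjusted p was 0.234 in edgeR's test and the unadjusted p was 0.0234 in the exact sign-flip test. Fish 2 had the lowest log2 ratio, -0.42, and the other exception was fish 9 with -0.07, while fish 4 had the highest, 0.67. Leaving out fish 2 gave a log2 fold change of 0.40 and an adjusted p of 0.0354, the lowest over the 17 other fits, in which the adjusted p otherwise ranged from 0.202 upward. The next annotated gene in the later assembly is adamts5, which codes for the aggrecan-cutting enzyme of the same family. It had 17.2 ± 3.33 CPM in lesioned and 16.7 ± 3.39 CPM in intact hemispheres (SD, n = 10 fish), and the interval of its log2 fold change was -0.09 to 0.17. Whether these neighbours differ in their change was not tested.

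LOC105916372, described as ADAMTS7-like, had 8.34, 8.98 and 12.2 CPM in lesioned hemispheres, against 7.18, 8.35 and 12.1 CPM in intact hemispheres. It was higher in 7 of 10 fish, by 0.17 on the log2 scale in the edgeR fit (SE 0.07). The adjusted p was 0.376 in edgeR's test and the unadjusted p was 0.0254 in the exact sign-flip test. It passed the cutoff of 0.4 in 7 of the 17 other fits, and not with DESeq2 (adjusted p = 0.971), without the filter on low counts, without the block or without fish 1, 2, 4, 6, 7, 8 or 9. ADAMTS7 is known as a protease of cartilage matrix in mammals. The lowest log2 ratio was -0.19 in fish 10 and the highest 0.41 in fish 2.

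ADAMTS2, ADAMTS3 and ADAMTS14 remove the amino-terminal propeptide of procollagens. LOC105918488, described as ADAMTS2-like, had the lowest log2 fold change of the members, -0.79 (SE 0.25, interval -1.32 to -0.25). The adjusted p was 0.234 in edgeR's test and the unadjusted p was 0.0312 in the exact sign-flip test. It had 0.661, 1.14 and 1.89 CPM in lesioned hemispheres, against 0.631, 1.84 and 5 CPM in intact hemispheres, and was lower in the lesioned hemisphere of 8 of 10 fish. Counts were few, from 7 to 19 in lesioned and 7 to 48 in intact libraries. The intact hemispheres of fish 5 and fish 9 stood apart with 46 and 48 counts, where the other 8 fish had 7 to 29, and these fish had log2 ratios of -1.72 and -2.16. Without fish 9 the log2 fold change was -0.59 and without fish 5 it was -0.63. LOC105918488 passed the cutoff of 0.4 in 14 of the 17 other fits. It did not pass with the DESeq2 test (adjusted p = 0.496), nor in edgeR's test without fish 9 (0.468) or without the block (0.877). Fibroblasts are cells that make procollagen. The summed genes listed for fibroblasts and meninges were higher in the lesioned hemisphere of 4 of 10 fish (mean log2 ratio -0.03, SD 0.12). That sum is of dcn, lum, pdgfra and pdgfrb and holds no procollagen gene. Whether it follows the number of fibroblasts was not tested. LOC105932502, described as collagen alpha-1(I)-like, differed by -0.26 (interval -0.84 to 0.31). Whether the change of LOC105918488 goes with the number of fibroblasts was not tested either.

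A second gene described as ADAMTS2-like, LOC105916818, had far more counts and 57.8, 64.8 and 77.8 CPM in lesioned hemispheres, against 52.7, 65.8 and 79.3 CPM in intact hemispheres. Its interval was -0.08 to 0.11. LOC105918691, described as ADAMTS14-like, had 16.8, 31.3 and 40.5 CPM in lesioned and 17, 33 and 39.3 CPM in intact hemispheres (interval -0.13 to 0.11), and for adamts6 the values were 20.7, 25.8 and 30.9 CPM in lesioned and 21.7, 25.3 and 31.3 CPM in intact hemispheres (interval -0.18 to 0.20). The ADAMTSs not yet given, which are adamts9 and 4 genes described as ADAMTS3-, ADAMTS15- and ADAMTS20-like, had log2 fold changes between -0.02 and 0.07, with unadjusted p-values of at least 0.342 in edgeR's test.

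Levels of these genes varied from fish to fish as well as between the hemispheres of a fish. Over the 32 members, the SD of the fish means (log2 CPM, mean of both hemispheres) had a median of 0.26 and ranged from 0.06 to 0.71, and the SD of the log2 ratios had a median of 0.25 and ranged from 0.04 to 0.82. These SDs are not on a like scale, because a difference between hemispheres spreads more than their mean where the hemispheres are unrelated. They therefore do not weigh fish against hemispheres. For 16 members the SD of the fish means was the larger. One of them is adam15, with an SD of 0.45 for the fish means and of 0.10 for the log2 ratios. Fish 4, 7 and 10 had 222 to 226 CPM in lesioned and 199 to 217 CPM in intact hemispheres, fish 9 had 98.2 CPM in the lesioned and 90.7 CPM in the intact one, and the other 6 fish had 110 to 182 CPM in lesioned and 104 to 187 CPM in intact hemispheres. LOC105918680 was high in both hemispheres of fish 5, with 135 counts in the lesioned and 142 in the intact one, where the other 9 fish had 26 to 57 and 25 to 57 counts. Levels of adam9 were also highest in fish 5, at 158 CPM in the lesioned and 166 CPM in the intact hemisphere, against 96.6 to 134 and 99.5 to 119 CPM in the other fish. Ratios varied more in members with few counts. The median SD of the log2 ratios was 0.18 over the 18 members with a mean of at least 10 CPM and 0.41 over the other members.

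**Figure D4:**
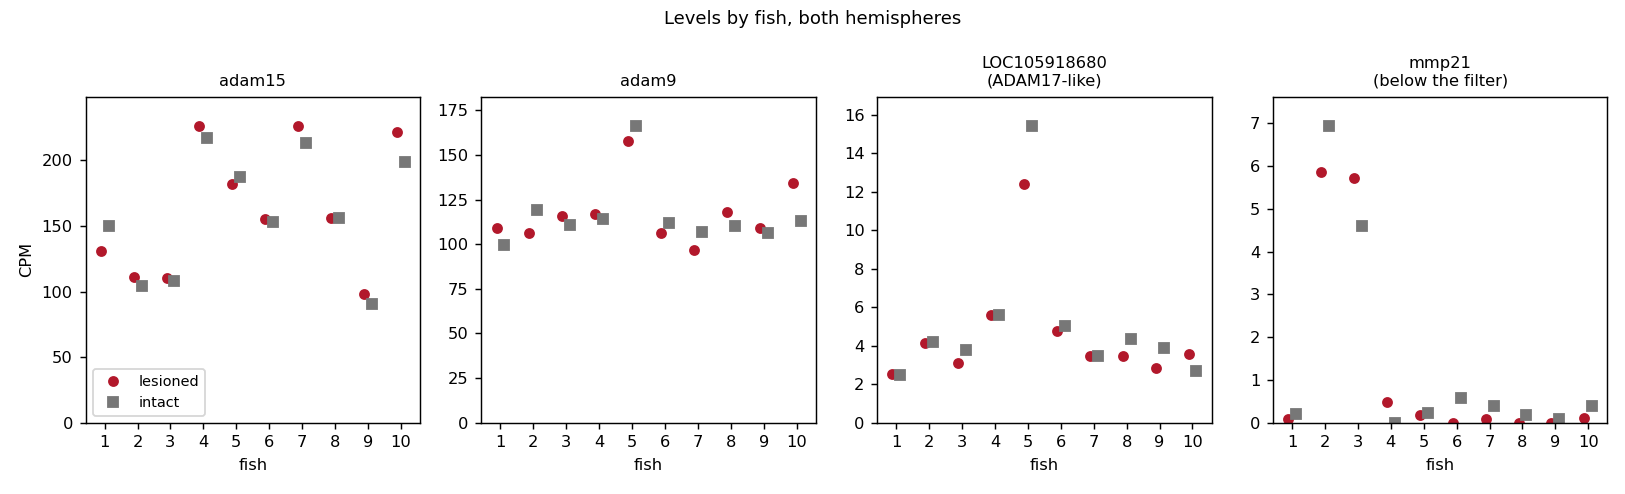
Level in CPM (y axis, from 0) by fish (x axis) in lesioned (red circles) and intact (grey squares) hemispheres for adam15, adam9, LOC105918680 and mmp21. Some fish stand apart in both hemispheres: fish 5 has 12.4 CPM (lesioned) and 15.4 CPM (intact) of LOC105918680. Fish 2 and 3 hold nearly all mmp21 counts, with 5.86 and 5.72 CPM in lesioned and 6.93 and 4.59 CPM in intact hemispheres. In adam9 the hemispheres of fish 10 differ, at 134 CPM in the lesioned and 113 CPM in the intact one.

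Genes that activate, guide or oppose these proteases, and their substrates, were taken from a list drawn up by role, with earlier results of these data known. Of 59 such genes in the table, 36 were matched on their description because the table gives them a placeholder symbol, and 48 passed the filter. Both genes called at 0.1 were matched on their description. At an adjusted p-value of 0.1, 2 of the 48 were higher and none was lower in lesioned hemispheres in edgeR's test, against 1.28% and 0.0951% of all genes. At 0.4, 3 were higher and 4 were lower, against 6.12% and 3.97% of all genes, and the median log2 fold change was -0.0175, against -0.00875 over all genes.

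LOC105928246 codes for proheparin-binding EGF-like growth factor (HB-EGF), a membrane-bound ligand that ADAM proteases release in mammals, with ADAM9, ADAM10, ADAM12 and ADAM17 among those described. It rose, with 35.6, 53.1 and 86.8 CPM in lesioned hemispheres and a mean of 56 CPM, against 16.1, 25.5 and 44.8 CPM and a mean of 26.5 CPM in intact hemispheres. All 10 fish had more of it in the lesioned hemisphere (log2 fold change 1.08, SE 0.09, adjusted p = 2.6e-05 in edgeR's test), and it was called in all 17 other fits. The genes of the named proteases that are members had log2 fold changes of 0.01 (adam9), -0.02 and 0.01 (the ADAM10-like copies), 0.08 (LOC105926454, ADAM12-like) and -0.11 (LOC105918680, ADAM17-like), none of which was called. Of the remaining shed substrates, cd44, a hyaluronan receptor, differed by -0.13 on the log2 scale (adjusted p = 0.25 in edgeR's test) and epha4, an Eph receptor, by 0.11 (adjusted p = 0.318).

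The other call was LOC105930425, described as tetraspanin-33-like. In mammals tetraspanin-33 belongs to the group of tetraspanins that carry ADAM10 to the cell surface. LOC105930425 had 289, 307 and 382 CPM in lesioned hemispheres, against 236, 267 and 341 CPM in intact hemispheres, and was higher in 9 of 10 fish (log2 fold change 0.19, SE 0.05, adjusted p = 0.0885 in edgeR's test). This call was lost in 12 of the 17 other fits, among them upper quartile scaling, total counts, no block and the fits without each fish other than fish 5, and without the block the adjusted p was 0.945 in edgeR's test. Other genes described as tetraspanin-33-like, LOC105926564 and LOC105933423, had log2 fold changes of 0.08 and -0.01. The gene with the symbol tspan33 had 47 counts in lesioned and 47 in intact libraries and did not pass the filter on low counts. Further tetraspanins of that group had log2 fold changes of 0.03 (LOC105915657, tetraspanin-5), -0.02 (tspan17) and -0.03 (both LOC105915355, tetraspanin-15, and LOC105924065, tetraspanin-14).

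Among activators and regulators, furin, which cuts the precursors of many MMPs and ADAMs, differed by 0.04 on the log2 scale (interval -0.03 to 0.11). LOC105915996, described as PCSK5-like after another convertase, had 3.33 CPM on average in lesioned and 4.21 CPM in intact hemispheres. It was lower in all 10 fish, with a log2 fold change of -0.36 (adjusted p = 0.191 in edgeR's test). The gene pcsk5 itself had more counts, with 51 CPM on average in lesioned and 52.6 CPM in intact hemispheres, and differed by -0.04. Another PCSK5-like gene, LOC105932367, differed by -0.06. The protease inhibitor gene serpine2 differed by -0.10 (adjusted p = 0.239) and basigin, bsg, an inducer of MMPs in mammals, by -0.05 (adjusted p = 0.369). The LGI gene in the table, lgi2, whose protein family binds ADAM22 and ADAM23, differed by -0.16 (adjusted p = 0.421). Of the matrix substrates, 0 of 11 genes tested were called at 0.4 in edgeR's test, where 10.1% of all genes were, and none had an unadjusted p under 0.05 (lowest 0.0543, for acan), so this count does not set them apart. The lecticans acan, bcan and ncan had log2 fold changes of -0.13, -0.13 and 0.08. A second neurocan gene with more counts, LOC105934599, had 0.02, and the versican-like LOC105935061 and LOC105915535 had -0.10 and -0.06. The tenascin-like LOC105915566 and LOC105915626 had -0.08 and -0.02. The basement membrane collagens col4a1 and col4a2 had 0.02 and 0.01, and LOC105932502, described as collagen alpha-1(I)-like, had -0.26. The intervals of all these matrix substrate genes reached 0. Those of LOC105915996, serpine2, bsg and lgi2 lay below 0. The interval of LOC105937015, described as low-density lipoprotein receptor-related protein 1-like, lay above 0, at 0.01 to 0.22. This gene was higher in 9 of 10 fish (log2 fold change 0.11, adjusted p = 0.401 in edgeR's test). Another gene of that description, LOC105923959, differed by -0.03.

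**Figure D5:**
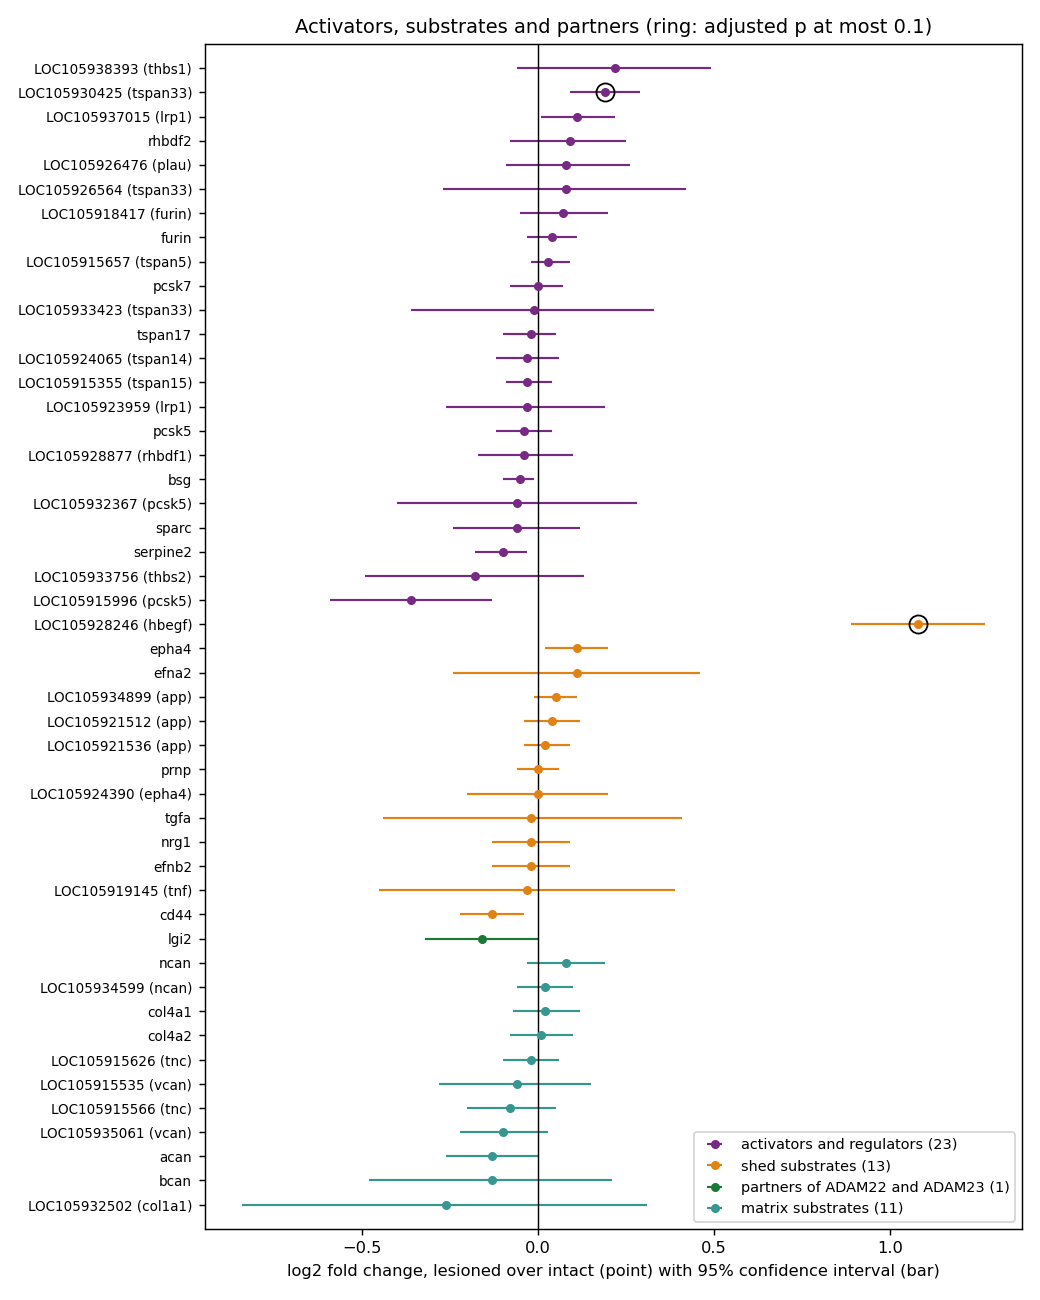
Log2 fold change of lesioned over intact hemispheres with 95% confidence interval (x axis) for 48 tested genes that regulate, bind or are cut by metalloproteinases, grouped by role from top to bottom; rings mark an adjusted p-value of 0.1 or less in edgeR's test. The 2 rings are LOC105928246 (HB-EGF, 1.08) and LOC105930425 (tetraspanin-33-like, 0.19).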

How the data were processed

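Total RNA of the lesioned and the intact midbrain/diencephalon hemisphere of 10 fish was sequenced. The authors trimmed reads with cutadapt 1.11, aligned them with STAR to the mummichog genome assembly 3.0.2, and counted them per gene with HTSeq; strand handling is not given in the sources used here. Deposited values are whole-number read counts for each gene in each library, neither normalized nor pooled. The table also holds the authors' DESeq2 comparison (mean, fold change, standard error, statistic, p-values), which was not used. Of 16264 entries, 2585 repeated transfer RNA entries (at most 0.00458% of gene counts in a library) were left out.

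The fit was made with edgeR 4.0.16 under R 4.3.3 (TMM scaling, filterByExpr with a minimum count of 10 and a minimum total of 15, fish as a block, quasi-likelihood fit, Benjamini-Hochberg adjustment over 10513 genes) after the script had been tested on simulated data. Standard errors are the log2 fold change over the root of F, and intervals use the degrees of freedom of that fit. The block follows the subject labels: deviations from group means correlated at 0.385 to 0.731 between hemispheres of a fish and at -0.207 to 0.201 between fish. CPM use TMM-scaled library totals. For single fish, log2 ratios of CPM were taken after adding a prior count of 2, and the exact two-sided test ran through the 1024 ways to flip their signs. With 9213580 to 11070103 counts per library in the deposited table, 1 CPM is about 10 counts. Intervals and limits on a count of 0 cover the spread between these fish or counting error only. Alternatives were other scalings, filters, DESeq2 1.42.0, no block, each fish left out, and a prior count of 0.5.

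Members, gene lists and cutoffs were chosen with earlier results of these data known. Values are printed for members with an adjusted p of 0.1 or less or an unadjusted p under 0.05. They are also printed for the 4 of highest mean CPM in each of the MMP, ADAM and ADAMTS groups. The rule further took genes described as collagenase, stromelysin, gelatinase, MMP2, MMP9, MMP13, MMP14, ADAM10, ADAM17 or ADAMTS1. No member is described as a stromelysin, gelatinase, MMP2 or MMP9. This gave 18 genes, and others were named after their values were seen. Related genes with placeholder symbols were matched on descriptions after these had been read. Names and gene order came from an annotation of the assembly MU-UCD_Fhet_4.1, a later one than the authors' assembly, and coordinates were therefore left out.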

Additional observations from a re-analysis of the deposited data

Results flagged for a closer look

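The log2 levels of each hemisphere group and the log2 ratios of the 18 named members gave 54 groups of 10 values, and 6 of them held a value far from the other 9, where a rule with a chance rate of 1 in 20 gives 2.7. In LOC105918680 (ADAM17-like), fish 5 stood apart in both hemispheres, at 3.66 log2 CPM in lesioned (other fish 1.45 to 2.53) and 3.97 log2 CPM in intact hemispheres (1.41 to 2.54). The intact hemisphere of fish 5 was also apart in adam9, at 7.38 log2 CPM against 6.64 to 6.90. Fish 2 was apart in the log2 ratio of mmp17, at 0.51 against -0.34 to 0.05, and in that of LOC105918691 (ADAMTS14-like), at 0.48 against -0.25 to 0.04. In LOC105918691 the lesioned hemisphere of fish 10 was low as well, at 4.08 log2 CPM against 4.67 to 5.35, and its intact hemisphere was the lowest of its group, at 17 CPM. No cause was tested for these values.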

How the results depend on the processing

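Results were computed in 17 other fits. None of the 7 fits with all fish called a member at an adjusted p of 0.1. Over the 10 fits that each lacked 1 fish, the number of members higher in lesioned hemispheres at 0.1 ranged from 0 to 1 (adamts1, without fish 2) and the number lower stayed 0; at 0.4 the numbers ranged from 1 (without fish 8, where 279 of all genes were called) to 6 higher (without fish 3, where 2066 were) and from 0 to 2 lower. Without the replicate block both numbers at 0.4 were 0, with 88 of all genes called, and with the DESeq2 test the number lower was 0 (3 higher), with 370 called, against 1060 in the edgeR fit with the block. The median log2 fold change, 0.012, moved in all 17 by less than the SD of the members' median ratios in single fish, but it was -0.00114 under upper quartile scaling. Those medians ran from -0.0548 (fish 5) to 0.133 (fish 10), which is wide beside 0.012, so the rule was a loose one. Of the 18 named genes, the 5 with an unadjusted p under 0.05 kept their direction in all 17 fits, and 8 with values near 0 changed sign in some. With upper quartile scaling these were LOC105916818 (-0.0018), adamts6 (-0.000481) and LOC105919785 (-0.00337), and LOC105919785 had -3.58e-05 without the replicate block. Over the fits that each left out 1 fish, log2 fold changes ranged from -0.02 to 0.02 for LOC105931566, -0.03 to 0.01 for adam23, -0.01 to 0.04 for adam9, -0.01 to 0.05 for LOC105916818, -0.06 to 0.02 for LOC105918691, -0.03 to 0.08 for adamts6, -0.02 to 0.07 for LOC105919785 and -0.30 to 0.04 for LOC105924047. A prior count of 0.5 changed no direction and no side of 0.05 for the 18 genes. Below the filter on low counts lay 5 members, and without that filter 36 of the 37 were tested and none was called at 0.1.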
